A study of Mus musculus with 56 samples.

Results

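The forestomach and the liver of the same 5 vehicle-treated mice were compared. The comparison took the 10 arrays whose titles give the dose D0 and the tissue forestomach (5 arrays) or liver (5 arrays), of 56 arrays in the whole series. All 10 came from adult male mice of the strain the labels call MutaTMMouse, a transgenic line that carries a bacterial reporter gene for scoring mutations, aged about 14 weeks. Every mouse of both groups had received olive oil alone by gavage on each of 28 days, and tissues were taken 72 hours after the last gavage, so that neither group was untreated. RNA was extracted from randomly cut sections of frozen tissue, and what share each cell type or neighbouring tissue had in a section is not known. The remaining arrays held lung, and forestomach and liver of mice given chrysene, a polycyclic aromatic hydrocarbon, at 17.5, 50 or 150 mg/kg of body weight per day. Of these, the 14 forestomach and 14 liver arrays of dosed mice were used once, to see how far the calls returned in other animals.

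The forestomach of the mouse is the upper, non-glandular chamber of the stomach. It is lined by a stratified squamous epithelium in which basal cells divide and their daughters move up, exchange one set of keratins for another and end as a cornified layer whose proteins are cross-linked into an envelope. Below lie a connective tissue layer and smooth muscle. At a ridge the squamous lining gives way to the glandular stomach, a simple epithelium of mucous, parietal and chief cells. The liver consists mostly of hepatocytes, which secrete the plasma proteins, run the urea cycle, make bile acids and glucose, and carry out much of the oxidation and conjugation of foreign compounds. Kupffer cells, sinusoidal endothelium, stellate cells and bile duct cells make up most of the rest. Both tissues are studied for polycyclic aromatic hydrocarbons, which need enzymatic activation before they bind DNA. A comparison of the tissues without such a compound gives relative starting levels of the RNA of those enzymes, not of protein or activity.

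Each array carried the tissue's RNA in the dye Cy5 and a universal mouse reference RNA, pooled from cell lines, in Cy3. The value per probe is the log2 ratio of Cy5 over Cy3 that the authors deposited, called the log2 ratio below, and 0 means the same signal as the reference. A tissue difference is the mean log2 ratio in forestomach minus that in liver. Where a gene was above background on only some arrays of a tissue, its difference is partly one against the background, and its SE does not show this. The number of arrays and the brightness of each limit the precision. In forestomach mice 1, 3 and 4, 24.6, 25.5 and 19.0% of the spots were well above background in Cy5, whereas in mice 2 and 5 the shares were 50.1 and 50.3%. The liver arrays lay between 37.7 and 46.4%. The 95th percentile of the Cy5 signal was 279 to 501 in the 3 dim forestomach arrays, 5887 and 6220 in the 2 bright ones and 2348 to 5170 in liver, while that of Cy3 stayed between 6543 and 9205. The bright forestomach arrays shared 1 slide, and mice 3 and 4 shared another. Each slide held 1 tissue only, so slide and tissue cannot be told apart. No Cy5 spot was saturated.

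The labelled tissues were checked against marker lists. The 29 hepatocyte plasma proteins on the array averaged a log2 ratio of 7.13 to 7.25 in the liver arrays, and all 29 were well above background in each. The 27 cornified envelope genes averaged 3.92 to 5.83 in the forestomach arrays and -0.35 to -0.21 in liver. The forestomach arrays were not alike in a second respect. Of 21 genes of the glandular stomach on the array, 2 were well above background in mice 1 and 4, against 20, 19 and 20 in mice 2, 3 and 5, and their mean log2 ratio was 0.52 and 0.34 against 5.63, 4.76 and 4.23. In liver the mean was 0.10 to 0.15. The hepatocyte list in forestomach was also higher in mice 2, 3 and 5 than in mice 1 and 4, at 0.10, 1.60, 0.96, 0.25 and 0.94 in mice 1 to 5, and the pancreatic acinar list stood at 0.10, 2.38, 1.48, 0.11 and 0.86. The adipocyte list was high in mice 2 and 5 (5.00 and 4.89) and low in mice 1, 3 and 4 (1.501, 0.97 and 1.23). Adipoq, which encodes adiponectin, was well above background only in forestomach mice 2 and 5, at 5.47 and 5.24, and so was Cfd, which encodes adipsin, at 7.19 and 7.12. Both had too few such arrays to be tested. Of the 3 adipocyte markers tested, 2 were called higher in forestomach (0 with median centring of the ratios), among them Fabp4, the adipocyte fatty acid binding protein (a difference of 3.94 ± 0.48, SE, adjusted p = 3.68e-05). Gene differences below that moved by over 1.5 times on mice 1 and 4 alone are given for those mice as well. Fewer cells of a type and less RNA per cell cannot be told apart in such bulk samples.

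**Figure D1:**
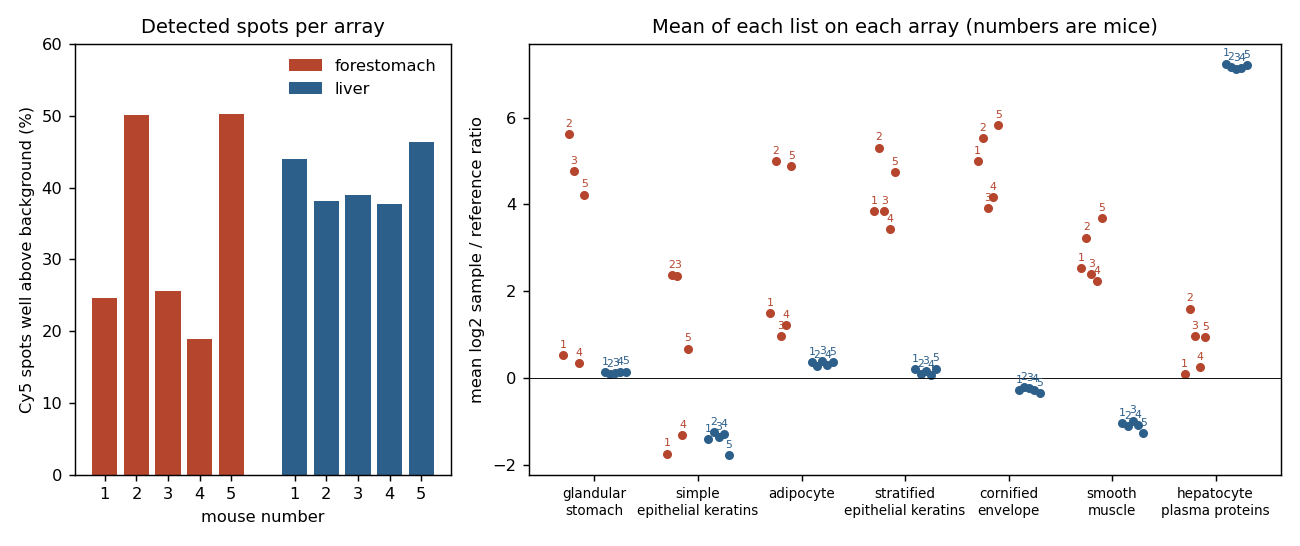
Left, the share of Cy5 spots well above background (%) on each of the 10 arrays, by mouse number. Right, the mean log2 ratio over the members of 7 marker lists on each array, each point being 1 mouse. The glandular stomach list splits the forestomach arrays into mice 2, 3 and 5 (4.23 to 5.63) and mice 1 and 4 (0.52 and 0.34), whereas the cornified envelope list is at 3.92 or higher on all 5.

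The reference channel was not the same in the 2 tissues for every gene. After quantile normalization between arrays, the Cy3 signal of 12617 genes lay within 2-fold between forestomach and liver, but that of 260 genes differed by at least 4-fold, with 94 higher on the forestomach arrays and 166 higher on the liver arrays. Of the 94, 91 were called higher in forestomach, and of the 166, 163 were called higher in liver. Krtdap had a raw Cy3 signal of 7527, 2033, 1842, 8189 and 2788 on the forestomach arrays of mice 1 to 5, and of 53.5 to 67 in liver. Cyp2c50 had a Cy3 signal of 35 to 47 in forestomach and 2063 to 3025 in liver. Ada, by contrast, had a Cy3 signal of 1040 to 1991 in forestomach and 1895 to 2394 in liver. The same reference RNA was put on all arrays, and why a probe's Cy3 signal moved with the tissue was not tested. Among genes above background on all 10 arrays whose Cy3 signal differed by at least 4-fold, Krt10 differed by 6.54 in the ratio and 8.52 in the Cy5 signal alone, and Gjb1 by -1.69 and -4.42. The direction of the ratio was also that of Cy5 alone for 99.6% of the called genes.

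**Figure D2:**
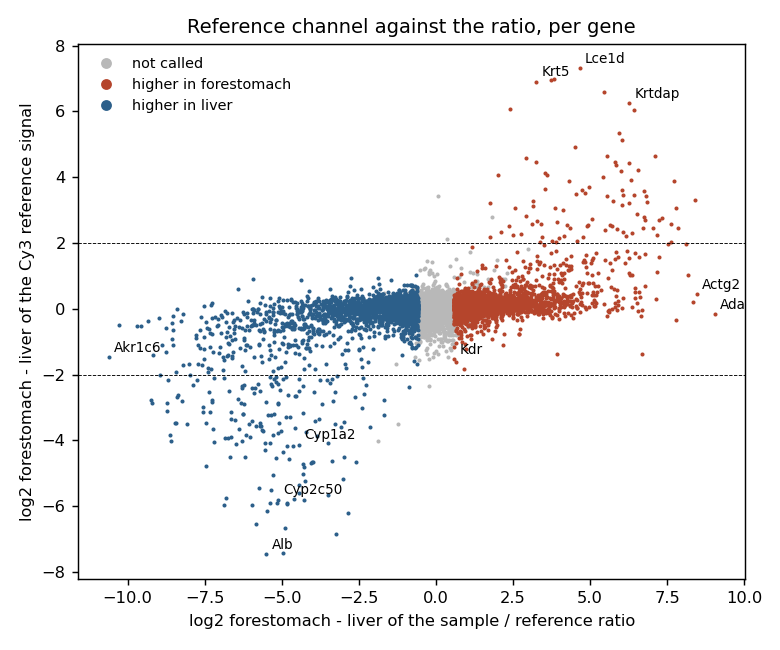
Per gene, the tissue difference of the log2 ratio (horizontal) against that of the normalized Cy3 reference signal (vertical, log2), with dashed lines at a 4-fold difference. Most genes lie near 0 on the vertical axis. The 94 genes above the upper line and the 166 below the lower line are nearly all called genes, with Lce1d, Krt5 and Krtdap at the top and Alb and Cyp2c50 at the bottom.

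Of 13117 genes with a named probe whose Cy5 signal passed the background filter on 3 or more of the 10 arrays, 3321 (25.3%) were called higher in forestomach and 3083 (23.5%) higher in liver, at an adjusted p of at most 0.05 and a fold of at least 1.5, and 6713 were not called. Over probes, named or not, the calls were 5534 and 5447 of 24881. The 5 values of one tissue lay entirely beyond the 5 of the other for 6455 genes (49.2%). The median difference over all genes was 0.04 on the log2 scale. At least 4-fold differences numbered 862 toward forestomach and 1028 toward liver. Among the genes called higher in forestomach, 520 were not above background on any liver array, and 318 of those called higher in liver were not above background on any forestomach array. Such genes passed the background filter through the brighter tissue alone, so the filter favoured their direction. The balance of the directions depended on the scaling: with each array's raw ratios centred on their median in place of LOWESS, the genes called were 112 higher in forestomach and 1234 higher in liver, and the median difference over all genes was -0.51. With forestomach mice 1 and 4 alone, 3898 genes were called higher in forestomach and 3390 higher in liver, together 55.6% of all genes. With only the brightest forestomach slide (mice 2 and 5) the counts were 3501 and 3574, together 53.9%. The SD over mice was larger in forestomach than in liver for 85% of the genes, with a median SD of 0.31 against 0.15. Pairs of liver arrays correlated at 0.976 to 0.988 over the probes tested, and those of forestomach at 0.696 to 0.943.

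**Figure D3:**
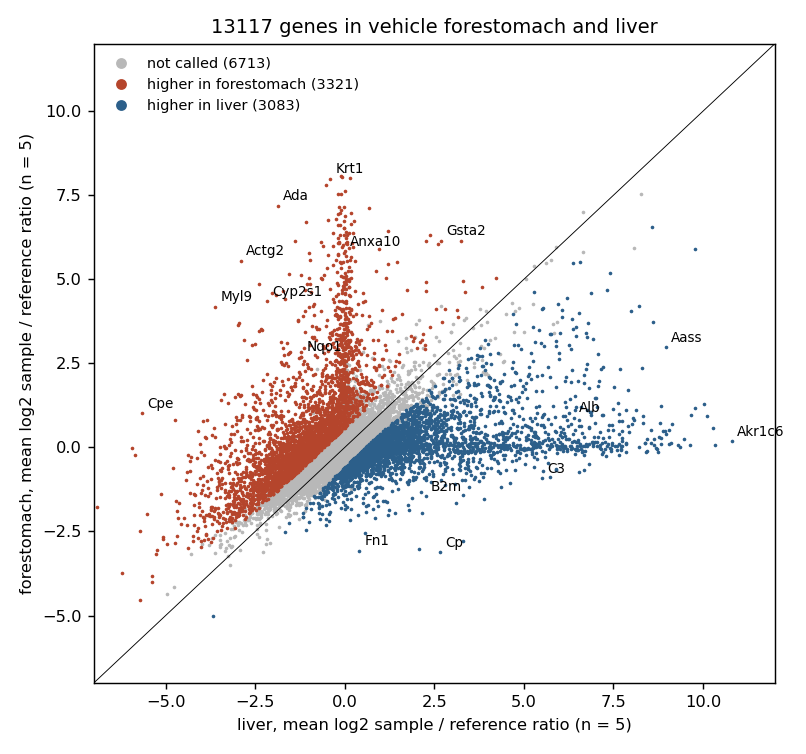
Mean log2 ratio of each of 13117 genes in liver (horizontal) and forestomach (vertical), n = 5 mice each. Points above the diagonal line are higher in forestomach (3321 called) and points below it higher in liver (3083 called), with Ada, Krt1 and Actg2 far to the upper left and Akr1c6 to the lower right.

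Promoter stretches are shown here for 5 genes because they stand for the gene groups that follow: 3 of the cornified epithelium, 1 of smooth muscle and 1 of plasma proteins. The letters TGAGTCA, which AP-1 factors can bind, the CArG box, which serum response factor can bind, an HNF1 site and the letters TATAAA were searched on both strands in the window from 250 bases before to 50 bases after each start site, in RefSeq promoters of the build GRCm38.p6. An HNF1 site was taken as GTTAATNATTAAC with at most 1 mismatch. A CArG box can itself contain TATAAA. Promoters were matched by symbol for 30 of 42 genes of the cornified envelope and stratified keratin lists, 20 of 24 smooth muscle genes and 22 of 30 plasma protein genes. Lor and Gc were picked for display after their values were seen. Lor encodes loricrin, the main protein of the cornified envelope, and its stretch is chr3:92083143-92083392 on the minus strand. Krtdap (chr7:30787655-30787904, plus strand) encodes keratinocyte differentiation-associated protein, and Dmkn (chr7:30763506-30763755, plus strand) encodes dermokine. Krtdap and Dmkn lie close together on chromosome 7. The capitals mark TGAGTCA, which lies 48, 81 and 89 bases before the start site in Lor, Krtdap and Dmkn.

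Lor: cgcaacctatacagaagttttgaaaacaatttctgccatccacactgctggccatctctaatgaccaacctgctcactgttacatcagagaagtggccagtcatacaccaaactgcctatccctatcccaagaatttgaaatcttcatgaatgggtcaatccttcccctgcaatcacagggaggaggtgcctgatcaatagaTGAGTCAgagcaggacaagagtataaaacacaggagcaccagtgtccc
Krtdap: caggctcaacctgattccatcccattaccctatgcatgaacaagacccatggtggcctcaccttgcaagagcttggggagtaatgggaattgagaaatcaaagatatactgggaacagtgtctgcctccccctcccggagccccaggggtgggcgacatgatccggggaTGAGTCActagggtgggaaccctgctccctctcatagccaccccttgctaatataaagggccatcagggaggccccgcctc
Dmkn: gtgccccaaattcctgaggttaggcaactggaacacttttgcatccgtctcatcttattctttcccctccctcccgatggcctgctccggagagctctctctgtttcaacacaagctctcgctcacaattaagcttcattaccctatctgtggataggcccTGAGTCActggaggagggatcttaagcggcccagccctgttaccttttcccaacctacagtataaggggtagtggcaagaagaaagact

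TGAGTCA was held by 11 of the 35 promoters of the cornified envelope and stratified keratin lists (31.4%), which belong to 9 genes (Dmkn, Ivl, Krt13, Krtdap, Lor, Sbsn, Scel, Sprr1a and Sprr2d). It was held by 5.2% of all 32851 promoters of the table, 4.28% of those of genes tested, 5.39% of those of genes called higher in forestomach and 9.64% of those at least 4-fold higher there. It was also held by 5 of 25 plasma protein promoters (20%), by 2 of 23 smooth muscle promoters (8.7%), by 5.05% of those of genes called higher in liver and by 5.89% of those at least 4-fold higher in liver. Several of the list's promoters are alternative starts of 1 gene, and 3 of the 11 belong to Dmkn. TATAAA was held by 12 of the same 35 (34.3%), against 13.6% of all promoters and 8.47% of those tested. It was held by 6 of the 25 plasma protein promoters (24%), by 3 of the 23 smooth muscle promoters (13%), and by 14.9% and 16.4% of the promoters of genes at least 4-fold higher in forestomach and in liver.

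The smooth muscle gene Myl9 encodes the regulatory light chain of myosin, and its stretch (chr2:156775214-156775463, plus strand) holds a CArG box 161 bases before the start site, in capitals. Gc encodes the vitamin D binding protein of plasma, and its stretch (chr5:89457899-89458148, minus strand) holds an HNF1 site with 1 mismatch 52 bases before the start site, in capitals.

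Myl9: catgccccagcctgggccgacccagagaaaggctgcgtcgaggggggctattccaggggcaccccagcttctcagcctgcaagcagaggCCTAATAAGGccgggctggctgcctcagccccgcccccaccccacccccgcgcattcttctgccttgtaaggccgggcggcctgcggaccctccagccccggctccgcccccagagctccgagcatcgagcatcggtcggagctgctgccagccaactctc
Gc: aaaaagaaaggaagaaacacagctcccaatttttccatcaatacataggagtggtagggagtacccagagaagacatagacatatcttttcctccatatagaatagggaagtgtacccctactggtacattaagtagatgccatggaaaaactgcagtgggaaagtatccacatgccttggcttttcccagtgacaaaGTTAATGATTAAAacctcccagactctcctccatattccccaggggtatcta

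A CArG box was found in 2 of 23 smooth muscle promoters (8.7%), those of Myl9 and Srf, in 1.63% of all promoters, in 1 of 25 plasma protein promoters (4%, Hpx) and in 1 of 35 promoters of the cornified envelope and keratin lists (2.86%). The HNF1 site was found in 1 of 25 plasma protein promoters, that of Gc, in 0 of the 23 smooth muscle and 0 of the 35 cornified and keratin promoters, in 0.207% of all promoters, in 18 of 3092 promoters of genes called higher in liver (0.582%) and in 1 of 3304 of genes called higher in forestomach (0.0303%). These are matches of letters in 1 window, not sites shown to be bound.

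Keratins of stratified epithelia and genes of the cornified envelope were higher in forestomach, and the envelope list had the largest median of the lists in that direction, although with median centring that of smooth muscle (3.29) was larger than its 3.22. Of the 14 stratified epithelial keratins, 11 were called higher in forestomach, 1 higher in liver and 2 were not called, with a median difference of 4.52. Of 25 tested cornified envelope genes, 24 were called higher in forestomach and none higher in liver, with a median of 6.05, and 17 of the 25 were not above background on any liver array. On forestomach mice 1 and 4 alone the counts higher in forestomach were also 11 and 24. With median centring of the raw ratios the 2 lists had 3 and 9 calls, and their medians were 1.92 and 3.22. The Cy3 reference was at least 4-fold higher on the forestomach arrays for 9 of the keratins and 12 of the envelope genes.

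Krt1, a keratin of the suprabasal cells of keratinizing epithelia, had log2 ratios of 7.78, 8.63, 7.35, 7.62 and 8.56 in forestomach mice 1 to 5 and -0.34, -0.37, -0.50, -0.43 and -0.43 in liver. No liver array showed it above background, so that its Cy5 signal was at least 337-fold higher in forestomach (adjusted p of the ratio = 1.34e-10). Such lower limits, here and below, are of the Cy5 signal. They set the mean signal of the brighter tissue against the detection floor of each array of the other, and each is the lowest value of 4 scalings of Cy5 (no normalization, quantile normalization, and loess with or without quantile normalization of the mean intensity). They could carry a dye bias since no dyes were swapped, and they are not limits of the ratio, which also moves with the Cy3 reference. The limits were not tested, and an adjusted p printed beside one is that of the ratio. Its partner Krt10 stood at 5.46 to 7.56 in forestomach and -0.14 to 0.21 in liver, a difference of 6.54 ± 0.35 (SE, adjusted p = 4.17e-08), or 5.89 on mice 1 and 4 alone. Krt6b, a keratin of activated and fast-renewing epithelia, ranged from 5.41 to 8.31 against 0.12 to 0.47. The spread of these keratins within forestomach was several times that within liver, yet no value of one tissue reached those of the other.

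Krtdap gave 6.01, 6.53, 5.66, 5.86 and 6.54 in forestomach and -0.40 to -0.05 in liver, where it was not above background, a Cy5 signal at least 525-fold higher (adjusted p = 1.81e-10). Asprv1, which encodes a protease that cleaves profilaggrin, was at least 401-fold higher, with 6.35 to 7.47 in forestomach. The late cornified envelope genes Lce1a1, Lce1d and Lce3a were at least 345-, 327- and 101-fold higher. Lce3a was the most variable of the 3 in forestomach, at 8.38, 9.01, 7.17, 6.52 and 9.07. Lce genes are close copies of each other, and a probe may read several of them. Cnfn (cornifelin), Dmkn and Crct1 were at least 308-, 432- and 269-fold higher, and Spink5, which inhibits the proteases that shed cornified cells, at least 112-fold. The lowest 2 forestomach values of Lce3a and Spink5 came from mice 3 and 4, the dim arrays of 1 slide. Sbsn, which encodes suprabasin, was above background on all 10 arrays, at 4.06 to 5.36 in forestomach and -2.67 to -2.12 in liver, a difference of 7.25 ± 0.23 (SE, adjusted p = 3.7e-10).

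The exception among the keratins was Krt80, called higher in liver. Its log2 ratios were 0.40, 1.28, 0.19, 0.54 and 2.22 in forestomach and 1.89 to 2.68 in liver, so that the groups overlapped, and the difference was -1.33 ± 0.36 (SE, adjusted p = 0.00808). On the 2 bright forestomach arrays alone it was -0.50 (adjusted p = 0.159), and with the Cy5 signal alone -0.40 (adjusted p = 0.117). Trp63, the master regulator of stratified epithelia, was looked up after its values were seen. Its ratio did not pass the test (0.33, -0.05, 0.79, 0.02 and -0.01 in forestomach, 0.44 to 0.54 in liver, adjusted p = 0.129), while its Cy3 reference was higher on the forestomach arrays by 1.46 and its Cy5 signal alone by 0.95 on the log2 scale.

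Ada, adenosine deaminase, which breaks down adenosine and is known for its high level in the upper gut lining of mice, had the largest difference of any gene above background on all 10 arrays. The log2 ratios were 7.46, 7.37, 6.16, 7.51 and 7.42 in forestomach and -1.89, -2.01, -1.72, -1.80 and -1.92 in liver, a difference of 9.05 ± 0.24 (SE, adjusted p = 7.67e-11). Forestomach mouse 3 was the lowest of its group and the other 4 lay close together. Ly6g6c, a gene of the Ly6 family, differed by 7.62 ± 0.23, Fabp5, the epidermal fatty acid binding protein, by 6.70 ± 0.37, and Cbr3, a carbonyl reductase, by 6.63 ± 0.25 (adjusted p of 3.17e-10, 5.1e-08 and 1.72e-09).

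**Figure D4:**
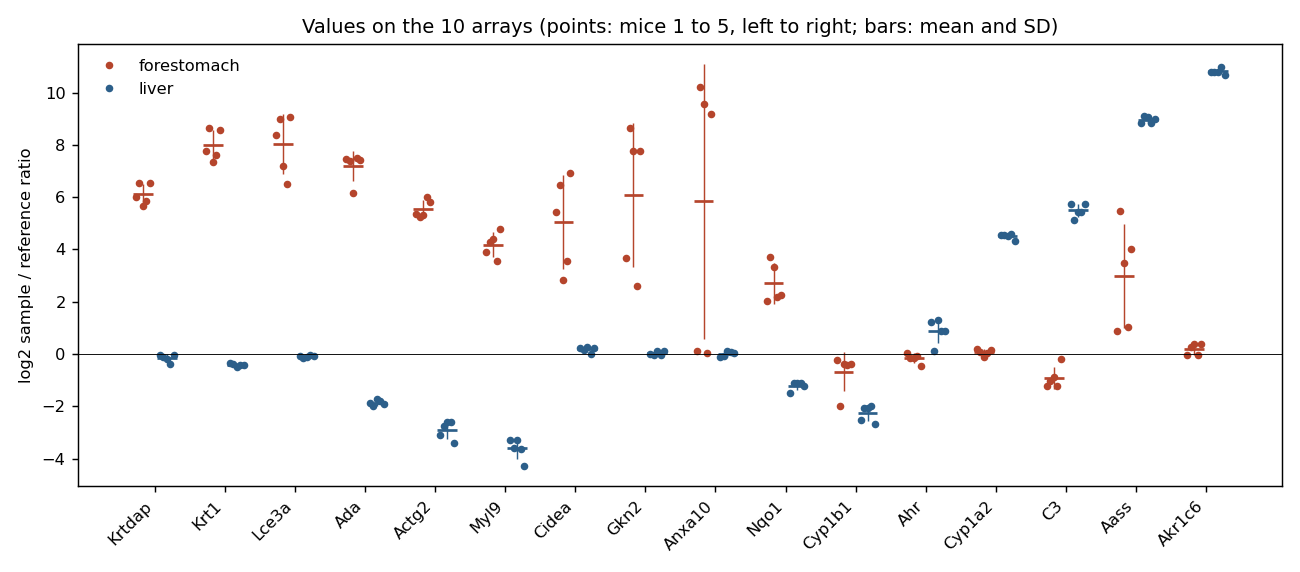
Log2 ratio of 16 genes on the 10 arrays, each point being 1 mouse (1 to 5 from left to right), with horizontal bars at the mean and vertical bars of 1 SD. The groups are far apart for Krt1, Ada, Actg2 and Akr1c6, overlap for Cyp1b1, and Anxa10 lies at 9.19 to 10.22 in forestomach mice 2, 3 and 5 but at 0.13 and 0.06 in mice 1 and 4.

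Genes that hold the epithelium together and control its fate were called less uniformly. Of 24 genes of desmosomes, hemidesmosomes and other junctions, 13 were called higher in forestomach and 4 higher in liver, against 12 and 7 on forestomach mice 1 and 4 alone and 1 and 1 with median centring, where the median was 0.94. Pkp1, plakophilin of the suprabasal desmosome, gave 4.23, 4.57, 2.90, 2.65 and 4.60 in forestomach and -1.43 to -1.07 in liver, a difference of 5.09 ± 0.37 (SE, adjusted p = 6.71e-07). Gjb6, a connexin of squamous epithelia, was at least 11.3-fold higher and Dsc1, a desmocollin of the upper layers, at least 5.99-fold, with wide spreads over the forestomach mice (1.93 to 7.15 and 0.88 to 6.32). In the other direction, Cldn1, a tight junction protein that hepatocytes also make, was -2.79 ± 0.39 (adjusted p = 0.000112), and Dsg2, the desmoglein of simple epithelia, -2.26 ± 0.47 (adjusted p = 0.00179), or -3.39 on mice 1 and 4 alone. Dsg2 was not above background in forestomach mice 1 and 4. Gjb1, the main connexin of hepatocytes, stood at 4.68 to 4.82 in liver, but in forestomach at 4.49, 3.78 and 3.93 in mice 2, 3 and 5 and at 1.77 and 1.26 in mice 1 and 4. Its difference was -1.69 (adjusted p = 0.0227), or -3.22 on mice 1 and 4 alone. The call was lost without forestomach mouse 1 (adjusted p = 0.0542).

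Of 18 transcription factors of squamous epithelia, 14 were called higher in forestomach and none higher in liver, with a median of 2.41. Pitx1, a homeobox factor of the oral and upper gut lining, was at least 49.4-fold higher, with 4.91 to 5.83 in forestomach (adjusted p = 8.3e-10). Klf4, which drives differentiation of barrier epithelia, was measured on all arrays and gave 3.28, 3.37, 3.63, 1.79 and 3.35 against -2.88 to -2.29, a difference of 5.59 ± 0.31 (SE, adjusted p = 5.42e-08). Grhl3, a grainyhead factor of the barrier, was at least 13.6-fold higher, and its lowest forestomach value, 2.47, came from mouse 3. On mice 1 and 4 alone the list counted 12 calls toward forestomach and 1 toward liver, and with median centring 3 and 0, with a median of 1.55.

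Of 15 genes of epithelial defence, 13 were called higher in forestomach and 1 higher in liver, with a median of 4.74, and with median centring 4 and 0, with a median of 3.17. S100a14, a calcium binding protein of epithelia, was at least 139-fold higher. Serpinb5, known as maspin, was at least 59.4-fold higher, and Lypd3, a surface protein of migrating keratinocytes, at least 205-fold. Serpinb5 was lowest in mouse 3 (4.83), with the other forestomach mice at 6.54 to 7.03. Lcn2, lipocalin 2, was the exception with overlapping groups, at -1.46 to -0.10 in forestomach and -0.42 to 0.62 in liver, a difference of -0.88 ± 0.30 (SE, adjusted p = 0.028). Its call was lost without any 1 of forestomach mice 2 and 5 and liver mice 3, 4 and 5 (adjusted p from 0.051 to 0.0694).

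The muscle wall and the stroma formed the second large group higher in forestomach. Of 21 tested smooth muscle genes, 18 were called higher in forestomach and none higher in liver, with a median difference of 4.92, and on forestomach mice 1 and 4 alone 18 were called higher in forestomach and 1 higher in liver. With median centring 9 were called higher in forestomach. Actg2, the actin of enteric smooth muscle, gave 5.37, 5.26, 5.33, 6.00 and 5.83 in forestomach and -3.11, -2.76, -2.61, -2.61 and -3.41 in liver, where 3 of 5 arrays were above background. The difference was 8.46 ± 0.20 (SE, adjusted p = 3.11e-11). Myl9 gave 3.90, 4.28, 4.41, 3.57 and 4.78 against -4.28 to -3.28, a difference of 7.80 ± 0.25 (adjusted p = 4.66e-10). Cnn1, calponin, differed by 7.53 ± 0.34 and Tagln, the smooth muscle protein transgelin, by 6.65 ± 0.22. In liver Cnn1 was above background only in mouse 3. Unlike Krtdap, Actg2, Myl9 and Tagln had a like Cy3 signal in both tissues (differences of 0.45, -0.33 and -0.20 on the log2 scale). Of 6 skeletal muscle markers tested, 2 were called higher in forestomach and 1 higher in liver. Cpe, carboxypeptidase E of secretory granules, was well below the reference in liver (-6.30 to -5.34) and above it in forestomach (0.68 to 1.61).

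Of 20 genes of extracellular matrix and fibroblasts, 17 were called higher in forestomach and 1 higher in liver, with a median of 1.77. With median centring 0 and 1 were called, and the median was 0.82. Fbln1, fibulin, differed by 4.32 ± 0.30, Col3a1, a fibrillar collagen, by 3.86 ± 0.25 and Postn, periostin, by 3.59 ± 0.44. Col3a1 stood at -0.05, -0.47, -0.56, 0.64 and -0.30 in forestomach and at -4.62 to -3.60 in liver, so that only forestomach mouse 4 was above the reference. Fn1, which encodes the fibronectin of plasma and matrix, went the other way, at -3.76 to -2.19 in forestomach and 0.27 to 0.50 in liver, a difference of -3.46 ± 0.25 (SE, adjusted p = 5.83e-07). The tested enteric neuron, glia and interstitial cell markers numbered 10, and 7 were called higher in forestomach, led by Ano1, the chloride channel of the interstitial cells of Cajal, at 3.39 ± 0.23, while with median centring none of the 10 was called. Skeletal muscle markers were mixed, with Tnni2 (4.36 ± 0.38, or 5.09 on mice 1 and 4 alone) and Acta1 (4.00 ± 0.29) higher in forestomach, Pvalb higher in liver (-1.70 ± 0.12), and 3 of the 6 tested not called. The share called is near the 48.8% over all genes. In liver Acta1 was above background only in mouse 1.

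Genes of position along the gut also differed. Of 12 tested Hox genes, 10 were called higher in forestomach and none higher in liver, with a median of 1.43. Another 10 of the 22 on the array were not above background on enough arrays to be tested. Hoxc4, Hoxc5 and Hoxc6, which lie together on chromosome 15, were not above background on any liver array. They passed the background filter through forestomach arrays alone, so the filter favoured that direction. Their Cy5 signals were at least 5.61-, 4.06- and 5.70-fold higher in forestomach (adjusted p of 1.41e-06, 0.000478 and 1.92e-06). Meis1 and Meis2, homeobox partners of Hox proteins, were measured on all arrays and differed by 2.65 ± 0.17 and 1.85 ± 0.17, and they were 2 of 4 called among 9 gut mesenchyme factors. With median centring of the raw ratios none of the Hox genes or gut mesenchyme factors was called, and the median of the Hox list was 0.79.

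The lists of hepatocyte functions were higher in liver throughout. All 29 plasma proteins, 17 coagulation factors, 19 complement genes, 24 genes of the urea cycle and amino acid breakdown, 17 of bile acid synthesis and transport and 11 of gluconeogenesis and glycogen tested were called higher in liver, with median differences of -6.73, -6.07, -5.42, -5.93, -5.53 and -5.76. Under median centring 26, 16, 18, 23, 16 and 11 of them were called, and on forestomach mice 1 and 4 alone all of these list members were called higher in liver. The Cy3 reference was at least 4-fold higher on the liver arrays for 23 of the plasma proteins and 10 of the coagulation factors. Of these lists together, many members were above background in no forestomach array, among them 11 of the 24 urea cycle and amino acid genes and 8 of the 19 complement genes.

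Akr1c6, an aldo-keto reductase of steroids, gave a log2 ratio of 10.80, 10.79, 10.79, 10.97 and 10.69 in liver and -0.06 to 0.40 in forestomach, where no array was above background. Its Cy5 signal was at least 558-fold higher in liver (adjusted p = 3.94e-13). Otc of the urea cycle was at least 65.7-fold higher and Tdo2, which opens the ring of tryptophan, at least 44.5-fold. Ass1, a urea cycle enzyme found in many tissues, was above background on all 10 arrays, and its ratio differed by -5.10 ± 0.22 (SE, adjusted p = 5.52e-09). The forestomach values of Akr1c6, Otc and Tdo2 lay between -0.19 and 0.40.

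Among secreted proteins, C3, the central complement component, was above background everywhere and gave 5.72, 5.13, 5.44, 5.45 and 5.72 in liver and -1.22, -1.05, -0.90, -1.21 and -0.19 in forestomach, a difference of -6.41 ± 0.20 (SE, adjusted p = 4.42e-10). Cp, ceruloplasmin, differed by -5.76 ± 0.41 (-4.99 on mice 1 and 4 alone), with the lowest forestomach values in the bright arrays of mice 2 and 5 (-4.16 and -4.32). Plg (plasminogen), Apoc4 and Serpina3m were at least 293-, 240- and 231-fold higher in liver, and the blood proteins Hrg and F13b at least 147- and 15.6-fold. Serpinc1, antithrombin, gave 9.38 to 9.59 in liver and -0.08 to 0.71 in forestomach, where 3 arrays were above background. Ambp, the precursor of a plasma protease inhibitor, stood at 2.66, 1.40 and 0.71 in forestomach mice 2, 3 and 5 and at -0.13 and 0.15 in mice 1 and 4, against 9.48 to 9.92 in liver. Mice 2, 3 and 5 are those whose arrays held the glandular and pancreatic markers, and whether these RNAs share a source was not tested.

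Metabolic genes followed. Slc27a5, which activates bile acids for conjugation, gave 8.58 to 8.83 in liver and -0.16 to 0.17 in forestomach, and the uptake transporter Slco1a1 was at least 20.1-fold higher in liver. Slc2a2, the glucose transporter of hepatocytes, was at least 34.7-fold higher, and Pygl, liver glycogen phosphorylase, differed by -5.39 ± 0.35 (-5.99 on mice 1 and 4 alone). Cat, catalase, gave 5.14 to 5.41 in liver and -0.19 to 0.49 in forestomach, a difference of -5.13 ± 0.15 (SE, adjusted p = 1.89e-10), and the selenium binding protein Selenbp1 differed by -5.39 ± 0.22. Aass, which starts the breakdown of lysine, was again split within forestomach, at 0.90, 5.48, 3.47, 1.02 and 4.01 in mice 1 to 5 against 8.82 to 9.11 in liver. Its difference was -5.99 ± 0.77 over 5 mice and -8.00 on mice 1 and 4 alone.

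Of 18 fatty acid oxidation genes, 14 were called higher in liver, with a median of -1.24. Ehhadh, an enzyme of the peroxisome, differed by -2.94 ± 0.36, or -3.76 on mice 1 and 4 alone. Acot1, a cytosolic acyl-CoA thioesterase, was called the other way, at 4.68, 3.74, 2.64, 4.52 and 4.78 in forestomach and -1.08 to 0.31 in liver, a difference of 4.16 ± 0.42 (SE, adjusted p = 7.99e-06). Acot genes are close copies, and the probe may read several. Cholesterol synthesis had 12 of 16 genes called higher in liver, with a median of -1.42, led by Dhcr7 at -2.64 ± 0.18. With median centring these 2 lists had 3 and 1 calls toward liver, although their medians were then lower, at -2.36 and -2.29.

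Of 16 hepatocyte transcription factors, 14 were called higher in liver and 2 were not called, with a median of -3.22. Nr1i3, the constitutive androstane receptor, was at least 9.61-fold higher in liver, Nr5a2, which controls bile acid genes, differed by -5.34 ± 0.20 and Nr1h4, the bile acid receptor, by -5.14 ± 0.16. Hnf4a, a nuclear receptor that defines hepatocytes and is also made by glandular gut epithelia, was picked after its values were seen. It stood at 4.33 to 4.52 in all livers, and in forestomach at 4.46, 4.37 and 3.75 in mice 2, 3 and 5 but at 0.11 and -0.02 in mice 1 and 4. Over 5 mice it was not called (-1.87, adjusted p = 0.0907), and on mice 1 and 4 alone its difference was -4.36. On those 2 arrays all 16 factors were called higher in liver.

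**Figure D5:**
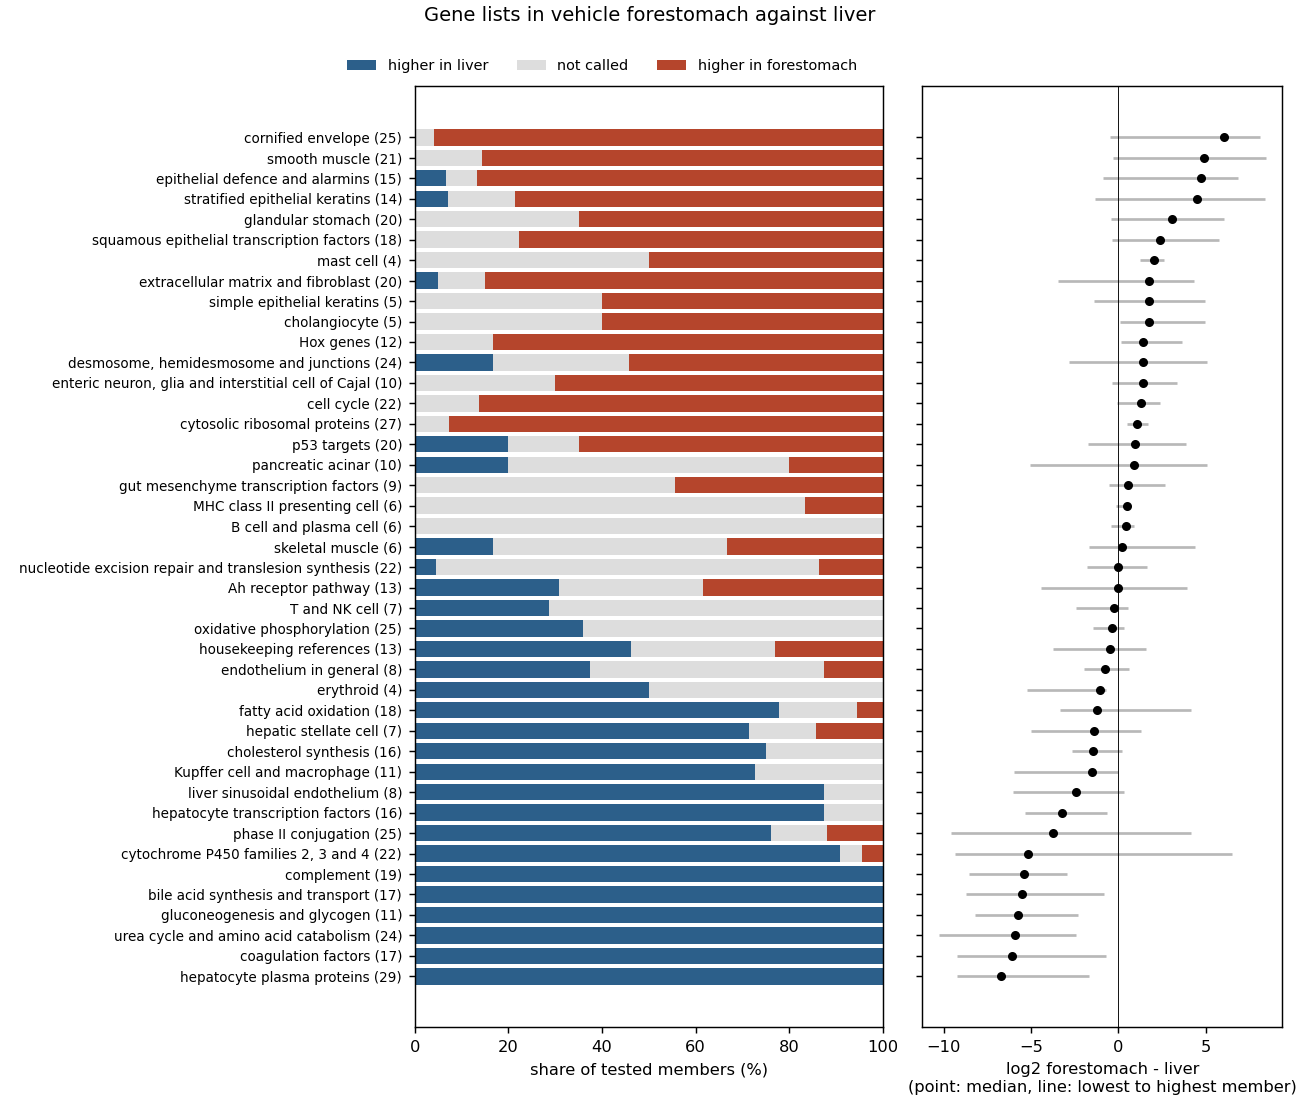
For each list with at least 4 tested members (number in brackets), left, the share of members (%) called higher in liver, not called or called higher in forestomach, and right, the median tissue difference (point) with the lowest and highest member (line), in log2 units. The lists run from hepatocyte plasma proteins (-6.73) to the cornified envelope (6.05). Repair genes (0.002) and Ah receptor genes (-0.03) lie near 0, but at -0.57 and -0.78 with median centring.

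The RNAs of the enzymes that handle polycyclic aromatic hydrocarbons did not all lie on one side. The aryl hydrocarbon receptor binds these compounds, pairs with Arnt and turns on the Cyp1 genes, whose products make the reactive epoxides, while epoxide hydrolase, quinone reductase and the conjugating enzymes convert the products further. Of 13 tested genes of this pathway, 5 were called higher in forestomach and 4 higher in liver, with a median of -0.03, and with median centring 0 and 1 were called, with a median of -0.78. Ahr gave 0.05, -0.15, -0.17, -0.08 and -0.44 in forestomach and 1.23, 0.11, 1.29, 0.89 and 0.89 in liver, a difference of -1.04 ± 0.21 (SE, adjusted p = 0.0014), with liver mouse 2 close to the forestomach range. Arnt was -0.61 to -0.41 in forestomach and -0.28 to 0.10 in liver, and its difference of -0.43 ± 0.10 was under the fold needed for a call (adjusted p = 0.00466). Ahrr, the receptor's repressor, was above background on 2 forestomach arrays and no liver array, and was not tested.

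Cyp1a1, the most inducible of the Cyp1 genes, was above background on no forestomach array and on 2 liver arrays in these mice given no chrysene, at log2 ratios of 0.01 to 0.53 and 0.10 to 0.64, and was not tested. Cyp1a2, the Cyp1 gene that liver expresses without an inducer, gave 4.55, 4.54, 4.51, 4.59 and 4.33 in liver and -0.10 to 0.18 in forestomach, where it was not above background, a Cy5 signal at least 38.6-fold higher in liver (adjusted p = 1.68e-11). Its Cy3 signal moved with the tissue as well, at 30 to 44 in forestomach and 730 to 863 in liver. Cyp1b1, the Cyp1 gene of extrahepatic tissues, was higher in forestomach by 1.59 ± 0.32 (SE, adjusted p = 0.0014), but forestomach mouse 2 at -1.998 lay within the liver range of -2.68 to -1.99, and the other 4 were at -0.43 to -0.22. Ephx1, microsomal epoxide hydrolase, gave 1.70 to 1.92 in liver and -0.30 to 0.66 in forestomach, a difference of -1.58 ± 0.17 (adjusted p = 1.28e-05). Akr1c13, a close relative of Akr1c6, was 2.72 to 2.93 in liver and -1.30, 2.78, 2.82, -0.71 and 0.50 in forestomach, and its call (adjusted p = 0.0379) was lost without any 1 of forestomach mice 1, 4 and 5 or of the liver mice (adjusted p from 0.0623 to 0.0866). Its difference was -2.01 over 5 mice and -3.83 on mice 1 and 4 alone, where its forestomach signal was not above background.

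Other members of the pathway were higher in forestomach. Nqo1, the quinone reductase, gave 2.03, 3.71, 3.33, 2.18 and 2.24 in forestomach and -1.49 to -1.09 in liver, a difference of 3.91 ± 0.31 (SE, adjusted p = 1.32e-06). Aldh3a1, an aldehyde dehydrogenase under the same receptor, gave 2.66 to 3.49 against -0.66 to -0.53, a difference of 3.63 ± 0.14 (adjusted p = 2.68e-09). Nfe2l2, which encodes the antioxidant regulator Nrf2, differed by 2.63 ± 0.15 (adjusted p = 7e-08). On forestomach mice 1 and 4 alone the differences of Nqo1, Aldh3a1 and Nfe2l2 were 3.31, 3.40 and 2.73.

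Among the cytochrome P450 families 2, 3 and 4, 20 of 22 tested genes were called higher in liver and 1 higher in forestomach, with a median of -5.19. Cyp3a25 and Cyp3a11, of the main drug-metabolizing family, were at least 102- and 70.0-fold higher in liver, and Cyp2c54 and Cyp2c50 at least 273- and 262-fold. Probes of these families may read more than 1 close copy. Cyp2s1 was the exception, at 4.24, 4.59, 4.81, 3.07 and 5.03 in forestomach and -1.93, -1.85, -2.11, -1.94 and -2.98 in liver, a difference of 6.51 ± 0.35 (SE, adjusted p = 4.82e-08), or 5.82 on mice 1 and 4 alone. Of 25 phase II genes, 19 were called higher in liver and 3 higher in forestomach. The glucuronosyltransferases Ugt2b5 and Ugt2b1 were at least 127- and 42.4-fold higher in liver. The glutathione transferases were divided: Gsta3 differed by -5.93 ± 0.24, while Gsto1 (4.14 ± 0.43), Gsta2 (3.47 ± 0.45) and Gsta4 (2.16 ± 0.11) were higher in forestomach. On mice 1 and 4 alone Gsto1 and Gsta2 differed by 3.15 and 2.48. With median centring no phase II gene was called higher in forestomach, and the calls toward liver numbered 15. Gsta2 was above the reference in both tissues, at 5.09 to 7.39 in forestomach and 2.37 to 3.15 in liver.

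Targets of p53, the factor that answers DNA damage, were mostly higher in forestomach, with 13 of 20 called there, 4 called higher in liver and a median of 0.93. Perp, a p53 target that is also a desmosome protein of stratified epithelia, gave 6.70, 5.89, 4.60, 6.99 and 6.54 against 2.10 to 2.48, a difference of 3.86 ± 0.38 that was 4.57 on mice 1 and 4 alone. Cdkn1a, which encodes the cell cycle inhibitor p21, differed by 3.29 ± 0.23 (0.62 to 1.14 in forestomach, -2.98 to -1.58 in liver), and Phlda3, an Akt inhibitor, by 3.28 ± 0.22. Bbc3 (-1.72 ± 0.27), Trp53inp1 (-1.46 ± 0.21) and the death receptor Fas (-1.35 ± 0.12) were higher in liver. With median centring no target was called higher in forestomach, 1 was called higher in liver and the median was 0.13. Of 22 genes of nucleotide excision repair and translesion synthesis, 3 were called higher in forestomach and 1 higher in liver, with a median of 0.002 that became -0.57 with median centring. On mice 1 and 4 alone 5 and 1 were called, and on the brightest slide (mice 2 and 5) 2 and 4. Ercc1, part of the nuclease that cuts beside a lesion, differed by 1.64 ± 0.17 (adjusted p = 9.42e-06). Mad2l2, a subunit of the translesion polymerase zeta, differed by -1.77 ± 0.18 (adjusted p = 8.58e-06).

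Of 22 cell cycle genes, 19 were called higher in forestomach and none higher in liver, with a median of 1.28. Birc5, survivin, gave -2.73, -2.78, -2.52, -2.57 and -2.79 in forestomach and -5.50 to -4.56 in liver, a difference of 2.39 ± 0.17 (SE, adjusted p = 4.97e-07). Mki67, the Ki-67 antigen of cycling cells, differed by 2.37 ± 0.26 and Mcm6, a subunit of the replicative helicase, by 2.09 ± 0.19. All of these lay below the reference in both tissues, and the reference came from cell lines. On the 2 bright forestomach arrays 12 of the 22 were called. Of the 27 cytosolic ribosomal proteins, all above background on all 10 arrays, 25 were called higher in forestomach, with a median of 1.07. Rps24 gave 0.40 to 1.13 in forestomach and -0.92 to -0.62 in liver, a difference of 1.70 ± 0.15. For both lists the size depended on scaling, since with median centring none was called and the medians were 0.089 and 0.025, against -0.51 over all genes.

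Of 25 oxidative phosphorylation genes, 9 were called higher in liver and none higher in forestomach, with a median of -0.36. With median centring of the raw ratios 0 were called and the median was -1.89. Sdhb, a subunit of succinate dehydrogenase, differed by -1.44 ± 0.17 and Cyc1, of complex III, by -1.23 ± 0.20. Genes often used as controls were not level. Of 13, 3 were called higher in forestomach and 6 higher in liver, and with median centring 0 and 1. B2m, the light chain of MHC class I, gave -1.94 to -0.58 in forestomach and 2.04 to 2.42 in liver, a difference of -3.72 ± 0.26 (SE, adjusted p = 4.89e-07). Gapdh differed by -1.30 ± 0.17, which the ratios computed here by loess from the scanner values put at -0.45 (adjusted p = 0.204). Ywhaz (1.56 ± 0.13) and Tfrc (1.23 ± 0.20) were higher in forestomach, and so was Hprt (1.43 ± 0.20), whose difference was -0.19 with median centring.

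Markers of the other cell types of the liver were mostly higher there. Of 11 Kupffer cell and macrophage markers, 8 were called higher in liver, with a median of -1.53. Cd5l, made by resident macrophages, gave 5.14, 5.78, 6.27, 6.36 and 6.74 in liver and -0.13 to 0.41 in forestomach. Clec4f, a lectin of Kupffer cells, was at least 8.40-fold higher in liver, and Vsig4, a complement receptor, stood at 5.10 to 5.82 there and at 1.22 and 1.85 on the bright forestomach arrays of mice 2 and 5. Of 8 markers of sinusoidal endothelium, 7 were called higher in liver, led by Clec4g (at least 17.9-fold) and Stab2 (-4.95 ± 0.11). Stellate cell markers were called higher in liver for 5 of 7, led by Colec11 (-4.97 ± 0.20), while Ecm1 was higher in forestomach (1.31 ± 0.18) but at -0.15 with median centring. In forestomach Colec11 was above background only in mouse 5. Of 5 bile duct markers, 3 were called higher in forestomach, namely Krt19, Epcam and Krt7, which the epithelia of the stomach also express. Epcam was at least 3.70-fold higher, with 0.53 to 1.39 in forestomach. With median centring the calls toward liver were 3 of the macrophage, 5 of the sinusoidal and 2 of the stellate markers, and 0 bile duct markers were called higher in forestomach.

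General endothelial markers were divided, with 3 of 8 called higher in liver and 1, Kdr, called higher in forestomach (0.60 ± 0.21, adjusted p = 0.029). Over all genes 48.8% were called, so the share among these markers is near that of any gene. With mouse as a block the adjusted p of Kdr was 0.065, its Cy5 signal alone differed by -0.87, and its ratio by -0.72 with median centring. Its call was lost without any 1 of forestomach mice 1, 3 and 4 and liver mice 1, 3 and 4 (adjusted p from 0.0572 to 0.0678). On mice 1 and 4 alone 6 of the 8 were called higher in liver, and on the brightest slide 1, and with median centring 1 was called higher in liver. Blood cell markers gave few calls. The counts of these small lists moved with the arrays used. Of 6 B cell markers 0 were called by limma and 0 by the shrunken F test with shuffled residuals, 2 had an unadjusted p under 0.05, and their median of 0.42 was -0.40 with median centring. On forestomach mice 1 and 4 alone 4 of the 6 were called higher in forestomach, and on the brightest slide 3 were called higher in liver. Of 7 T and NK cell markers Cd4 (-2.40 ± 0.14) and Nkg7 were higher in liver, on mice 1 and 4 alone 2 markers were called higher in forestomach as well, and on the brightest slide 4 were called higher in liver. Of 6 MHC class II genes only H2-Eb1 was called (4 were called higher in forestomach on the brightest slide), at 0.70 ± 0.25 toward forestomach (SE, adjusted p = 0.0355), but its difference was -0.29 with median centring. Its call was lost with mouse as a block (adjusted p = 0.0713), and without any 1 of forestomach mice 2 and 5 and liver mice 1, 2, 4 and 5 (adjusted p from 0.0535 to 0.0822). Of 4 erythroid markers 2 were called higher in liver (1 with median centring), and Alas2, the erythroid heme synthesis enzyme, differed by -5.20 ± 0.39 (-5.89 on mice 1 and 4 alone). In forestomach Alas2 was above background only in mice 2 and 5, so the -5.89 is a difference against the background. Of 4 mast cell markers, Mcpt4 (2.63 ± 0.45) and Cpa3 were called higher in forestomach, against 1 on mice 1 and 4 alone, 4 on the brightest slide and 0 with median centring. Cpa3 gave 1.28, 3.05, 1.01, -0.04 and 4.37, with no liver array above background, and its call (adjusted p = 0.037) was lost without forestomach mouse 2 (adjusted p = 0.0791) or any 1 liver mouse (adjusted p from 0.0608 to 0.0687).

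Genes of the glandular stomach were the most variable in forestomach. Of 20 tested, 13 were called higher in forestomach and none higher in liver, and 14 were not above background on any liver array. On mice 1 and 4 alone 2 were called higher in forestomach and 1 higher in liver, and with median centring 0 and 0. The forestomach genes of largest SD were Anxa10, Cblif, Chia1, Tspan1, Agr2 and Atp4b. Anxa10, an annexin of gastric mucous cells, gave 0.13, 10.22, 9.58, 0.06 and 9.19 in mice 1 to 5, and Cblif, the gastric intrinsic factor, 0.16, 9.49, 8.65, 0.68 and 7.34. Atp4b, of the proton pump of parietal cells, gave 0.10, 7.08, 6.63, -0.20 and 6.58. The liver values of the 3 were between -0.12 and 0.17. Their calls (adjusted p of 0.0284, 0.0239 and 0.0361) rest on mice 2, 3 and 5, and without any 1 of these mice the adjusted p was 0.05 to 0.0816. Anxa10 and Atp4b also lost the call without any 1 liver array (adjusted p from 0.0506 to 0.0655). Chia1, Tspan1 and Agr2 (adjusted p of 0.0316, 0.0253 and 0.0354) lost theirs without forestomach mouse 2, 3 or 5, and Chia1 and Agr2 also without any 1 liver array (adjusted p from 0.0558 to 0.0632).

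Tff1 and Gkn2 were also lower in mice 1 and 4 than in mice 2, 3 and 5, but were above background there. Tff1, a trefoil peptide of surface mucous cells, gave 5.31, 6.75, 5.95, 4.19 and 6.54 in forestomach, and Gkn2, a gastrokine, 3.66, 8.66, 7.76, 2.59 and 7.77, so that both were above background on all 5 arrays and on no liver array. In mice 1 and 4 the raw Cy5 signal was 1231.5 and 446 for Tff1 and 296 and 179 for Gkn2, far below that of mice 2, 3 and 5 (45973 to 399012 and 28446 to 295191) and above that in liver (65 to 82 and 61 to 70). They are the 2 members that were also called on mice 1 and 4 alone. Of 5 simple epithelial keratins, 3 were called higher in forestomach and none higher in liver, but on mice 1 and 4 alone 3 were called higher in forestomach and 2 higher in liver, and with median centring none was called. Krt19 gave -1.52, 3.78, 4.41, -0.83 and 2.08 in forestomach and -4.03 to -3.13 in liver, and Krt20 -0.63, 3.46, 3.54, -0.58 and 0.95 against -2.87 to -2.14. The difference of Krt19 was 4.96 over 5 mice and 2.20 on mice 1 and 4 alone. Clps, pancreatic colipase, gave 1.45, 8.31, 7.38, 2.16 and 6.97, a difference of 5.07 that was 1.62 on mice 1 and 4 alone. Clps was 1 of 2 pancreatic acinar genes called higher in forestomach of 10 tested, against 7 on the brightest slide and 0 with median centring. Amy2a5 (-5.06 ± 0.27) and Ctrb1 (-1.75 ± 0.15) were higher in liver, and the amylase probe may also read the liver and salivary amylase gene.

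The liver arrays were more alike, but some genes varied widely among them. Slc17a3, a urate and phosphate transporter, gave 6.31, 0.50, 3.31, 6.49 and 6.40 in liver mice 1 to 5, and Nat8f5, an acetyltransferase, 2.78, 5.62, 1.93, 5.99 and 5.55. Both were not above background in forestomach, and both were called higher in liver (adjusted p of 0.00262 and 0.000377). Cyp26b1, which degrades retinoic acid, gave 2.95, -0.60, -0.78, -0.44 and 1.58 in liver, with mouse 1 inside the forestomach range of 1.90 to 3.56. Moxd1 gave 3.09, 5.27, 5.00, 5.16 and 1.80, and Rgs16, a regulator of G protein signalling, 3.09, -0.74, 2.93, 2.16 and 1.77. Mfsd2a, a lipid transporter, gave 0.16, -0.54, 3.21, 0.85 and 2.55 and was not called. Mouse 2 was lowest for Slc17a3, Rgs16 and Mfsd2a, and mouse 3 for Nat8f5. Liver mice 1 and 5, whose arrays shared a slide, were highest for Cyp26b1 and lowest for Moxd1. Whether the slide had a part in this was not tested.

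A limma test with a mean per dose group and a contrast averaged over doses was run on 14 forestomach and 14 liver arrays of mice given chrysene. None of these arrays entered the vehicle comparison, but they shared slides with its arrays. Each slide held 1 tissue only, so a slide effect could return in them. The test called 3723 genes (28.4%) higher in forestomach and 3224 (24.6%) higher in liver. Of the 3321 genes called higher in forestomach of vehicle mice, 3074 were called in the same direction in dosed mice and 0 in the opposite one, and of the 3083 called higher in liver, 2832 and 3. Among genes measured in both tissues, the differences in vehicle and dosed mice were 9.05 and 9.03 for Ada, 8.46 and 8.80 for Actg2, -6.41 and -5.78 for C3, 3.91 and 3.73 for Nqo1 and -1.04 and -1.09 for Ahr. The plasma protein list had 29 of 29 genes called higher in liver in dosed mice too, and the cornified envelope list 24 of 25 called higher in forestomach. Of the 20 glandular stomach genes tested, 17 were called higher in forestomach of dosed mice and 0 higher in liver, against 13 and 0 in vehicle mice.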

How the data were processed

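RNA from forestomach and liver was labelled with Cy5 and hybridised against Cy3-labelled universal mouse reference RNA on Agilent arrays, with no dye swaps. The authors deposited scanner files from Feature Extraction 10.7.3.1, with median signal intensity per channel and flags (0 or 1) for spots well above background, and a table of log2 ratios. Per the labels and the study's methods, these log2 ratios were LOWESS-normalized without background subtraction. Against loess ratios recomputed here the deposited columns correlated at 0.977 to 0.998, with slopes of 0.952 to 0.996, so that Cy5 over Cy3 is the direction and the scale is log2.

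Probes with Cy5 well above background on at least 3 of 10 arrays were tested (24881 of 55681), after 101 probes with non-uniform spots and 3671 control spots were left out. The tissues were compared by limma 3.58.1 (R 4.3.3, lmFit and eBayes, two-sided) with Benjamini-Hochberg adjustment over all probes tested. A call needed an adjusted p of at most 0.05 and a fold of at least 1.5. Gene symbols came from matching each probe's transcript name in the scanner output to RefSeq transcripts, which named 26413 probes (47.4%). The tested probe with the highest mean Cy5 signal stood for its gene. The test was tried on simulated data, and the outcome is not reported here. Probes of close gene copies may share sequence.

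The members and gene lists were chosen with earlier results of these data known. Genes were named by rule: the largest differences among genes above background on all arrays, the largest lower limits, up to 3 called members of a list in each direction, the Ah receptor genes, and the genes of largest SD in each tissue. Krt5, Krt13, Alb, Lor, Gc, Trp63, Hnf4a, Adipoq and Cfd were chosen after their values were seen, as were other list members named only with a motif. A few genes named by the rule are not reported here. Of the listed members on the array, 85 were under the filter on dim probes and 2 had non-uniform spots. Both tissues came from the same 5 mice. Deviations of the 2 tissues of a mouse from their group means correlated at -0.101, -0.133, 0.046, 0.128 and 0.177 for mice 1 to 5, and mouse was used as a block in an alternative fit. The alternatives covered background correction, normalization, the dim-probe filter, blocks for mouse and slide, array weights, all 56 arrays, the brightest slide, the study's Fs test, a test against the fold limit and leaving out each array. Forestomach mice 1 and 4 alone, the Cy5 signal alone and the printing of lower limits as the lowest of 4 scalings were added after seeing the data. Each mouse gave 1 array per tissue, and 0 columns lacked a sample.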

Additional observations from a re-analysis of the deposited data

Results flagged for a closer look

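In 454 groups of 5 arrays, 1 array stood apart from the other 4 in 19, where chance would give 22.7 (a gap of more than 0.71 of the group's range). In forestomach mouse 3, Ada was 6.16 (others 7.37 to 7.51), Cbr3 3.57 (others 4.71 to 4.91), Serpinb5 4.83 (others 6.54 to 7.03) and the mean of the housekeeping list -0.15 (others -0.61 to -0.49). In forestomach mouse 4, Klf4 was 1.79 (others 3.28 to 3.63) and Cd4 -0.19 (others 0.35 to 0.51). In forestomach mouse 2, Cyp1b1 was -1.998 (others -0.43 to -0.22), Trp53inp1 -0.92 (others -0.46 to -0.40) and Ugt2a3 1.35 (others 0.18 to 0.43), and in mouse 5 Lrat was -0.40 (others -0.18 to -0.11).

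In liver mouse 5, Krt19 was -4.03 (others -3.27 to -3.13), Krt7 -1.37 (others -0.95 to -0.84), Cyp2s1 -2.98 (others -2.11 to -1.85), Etv1 -3.56 (others -3.32 to -3.25) and the mean of the extracellular matrix list -1.81 (others -1.48 to -1.41). In liver mouse 2, Acot1 was -1.08 (others -0.003 to 0.312) and Ces1c 7.59 (others 7.43 to 7.47). Ehhadh was 4.14 in liver mouse 1 (others 4.34 to 4.41) and Tspan1 0.008 in liver mouse 3 (others -0.24 to -0.21), where it was not above background. Krt7 was likewise above background on no liver array, and Lrat on no forestomach array.

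The Cy3 channel, which carried the same reference RNA on every array, differed by at least 4-fold between the tissues for 260 genes, nearly all of them called in the same direction. The cause was not tested.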

How the results depend on the processing

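Median centring of the raw ratios in place of LOWESS gave 161 probes higher in forestomach and 1983 higher in liver, 112 and 1234 genes. A filter of at least 8 of 10 arrays gave 2792 probes and 1863 genes higher in liver, since fewer were tested. A test against the fold limit itself (treat) gave 3085 and 3149 probes, 1894 and 1921 genes. Leaving out 1 array gave 5152 to 5643 and 5135 to 5577 probes, 3064 to 3393 and 2950 to 3165 genes. The other settings kept each count within 1.5 times: mouse as a replicate block, for example, gave 3345 and 3078 genes, slide as a random block 3111 and 2956, and the Cy5 signal alone 3065 and 2847. With the block, 182 of 184 named genes stayed on their side of the threshold, the exceptions being Kdr and H2-Eb1. With median centring only 94 of the 184 stayed, while 84 became weaker and 6 changed sign.

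Named genes changed sign as follows. On forestomach mice 1 and 4 alone, Agr2 was -0.13 and Atp4b -0.16. Neither gene was above background in those mice or in liver, so these signs carry no direction. With median centring, Ecm1 was -0.15, Gtf2h1 -0.14, H2-Eb1 -0.29, Hprt -0.19, Kdr -0.72 and Lig1 -0.41, and with quantile normalization Lig1 was -0.071. With Cy5 alone Kdr was -0.87 and Mfsd2a 0.073. Mfsd2a was 0.28 on the brightest slide, and it ranged from -0.902 to 0.036 when 1 array was left out, the latter without liver mouse 3. The causes were not tested. The dim forestomach arrays, with 19.0 to 25.5% of spots above background, limit what low genes can show.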
